A study of Homo sapiens with 26 samples.

Results

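Repression of HNF4A from its P2 promoter in AsPC-1 cells was compared with a control guide in 6 of the 26 RNA sequencing libraries of the study. The 4 P2 libraries and the 2 control libraries were chosen by their labels. Guide sgP2D gave 2 libraries, guide sgP2G gave 2, and the control guide, labelled sgNC, gave 2. AsPC-1 is an established human pancreatic ductal adenocarcinoma line, and all 6 libraries come from it without any further treatment named in the labels. The rest of the study holds 8 AsPC-1 libraries with guides against the P1 promoter (sgP1) or against both (sgDual), and induced expression of HNF4A isoforms in the lines Panc10.05 and BxPC3. Each target had only 2 guides and the control only 1. The labels do not say whether the replicates of a guide were separate cultures or transductions, so p-values measure the spread between these libraries, which may be technical.

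HNF4A encodes HNF4α, a nuclear receptor transcription factor that keeps gut, liver and pancreatic epithelia differentiated. Its isoforms start at 2 promoters. P1 is the main start in adult liver, P2 is used in pancreas, stomach and fetal tissue, and P2 isoforms lack the N-terminal activation domain that P1 isoforms carry. In CRISPR interference, a guide RNA brings a catalytically inactive Cas9, usually fused to a repressor, to a promoter and lowers transcription from it without cutting the DNA.

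The 250 bases before each HNF4A start show what the 2 promoters are. They are taken from RefSeq on GRCh38.p14 and written 5′ to 3′ on the plus strand of chromosome 20. P2 covers chr20:44355449-44355698 and P1 covers chr20:44400989-44401238, 45540 bases downstream. Capitals mark the CG dinucleotides, the sites of DNA methylation.
HNF4A P2: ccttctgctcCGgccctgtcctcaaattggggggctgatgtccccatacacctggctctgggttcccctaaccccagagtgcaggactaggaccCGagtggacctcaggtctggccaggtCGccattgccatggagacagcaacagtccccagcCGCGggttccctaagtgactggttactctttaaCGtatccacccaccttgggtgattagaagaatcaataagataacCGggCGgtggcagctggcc
HNF4A P1: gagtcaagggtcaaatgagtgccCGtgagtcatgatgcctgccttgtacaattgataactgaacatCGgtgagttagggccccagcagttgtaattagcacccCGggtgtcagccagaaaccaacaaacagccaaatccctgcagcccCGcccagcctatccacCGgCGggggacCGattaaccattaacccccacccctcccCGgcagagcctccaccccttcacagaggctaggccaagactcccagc
P2 holds 8 CG dinucleotides and P1 holds 8, where the median over all 35116 RefSeq promoter windows of the same length is 11 and 93.9% hold at least 1. Neither promoter held CAAAGNCCA, a core pattern of HNF4 sites. The sequences of the guides were not used here, so where they lie in P2 is not given.

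The 6 libraries held between 26079388 and 33407622 counts, with 14994 to 15762 genes at 10 counts or more. Mitochondrial transcripts took 8.37% and 9.24% of the sgNC counts and 7.74% to 8.36% of the sgP2 counts. Of 62754 genes in the table, 16992 had enough counts to be tested. Levels below are in CPM, the count of a gene relative to the total of its library, after TMM scaling of the totals. A gene passed the test where edgeR's quasi-likelihood test gave a Benjamini-Hochberg adjusted p under 0.05 over all 16992 genes. The line expressed its ductal markers, with sgNC means of 7577 CPM for KRT8, 3771 CPM for KRT18, 2484 CPM for KRT19 and 564 CPM for EPCAM. Of 12 acinar and endocrine markers, 1 was tested, with a summed level between 0.665 and 1.35 CPM over the 6 libraries. Of the fibroblast, endothelial and leukocyte lists, 6 of 10, 4 of 8 and 3 of 10 genes were tested, and LYZ alone passed the test between sgP2 and sgNC. The summed level of 10 ductal markers was 15720 to 15833 CPM in sgNC and 10944 to 12716 CPM in sgP2. With both guides together 0 of the 10 passed. Against the same controls 5 fell with sgP2D and 3 with sgP2G, where 4.06% and 3.85% of all genes did. In bulk RNA, fewer cells of a kind and less RNA per cell cannot be told apart, and the part of this lower sum in the results below was not tested.

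HNF4A itself (chromosome 20, 44355700 to 44434596, plus strand) was at 206 and 219.8 CPM in the sgNC libraries. It was at 93.9 and 91.4 CPM with sgP2D and at 84.0 and 76.7 CPM with sgP2G. All 4 sgP2 libraries lay under both controls, no difference between the guides passed the test (log2 0.20, adjusted p 0.97), and the sgP2 mean was 40.7% of the sgNC mean. The log2 fold change was -1.30 (SE 0.36) with an adjusted p of 0.0751, so HNF4A did not pass the test in the fit of all 14 AsPC-1 libraries. Nor did it pass with either guide set singly against sgNC, with a log2 fold change of -1.20 (adjusted p 0.117) for sgP2D and -1.40 (adjusted p 0.0742) for sgP2G. That fit shares 1 estimate of spread with the sgDual libraries, where HNF4A ran from 3.19 to 13.6 CPM. Without the 4 sgDual libraries, a setting chosen after seeing the data, the log2 fold change was -1.30 with an adjusted p of 0.000952, and with only the 6 libraries the adjusted p was 0.000223. The counts do not separate isoforms, so the level sums transcripts from P1 and P2. For comparison, the sgP1 mean was 129 ± 18.4 CPM (SD, n = 4), and sgP2 did not differ from sgP1 by the test (log2 fold change -0.58, SE 0.31, adjusted p 0.343).

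A second transcript at the P2 promoter had 0 counts in every sgP2 library. R3HDML-AS1 (ENSG00000226812) is a noncoding RNA read from the minus strand at chromosome 20, 44347552 to 44355185 in GENCODE v29. Its RefSeq start lies 456 bases from the P2 start of HNF4A and points the other way, so that both transcripts leave the same stretch of DNA. The first 44 bases of the P2 sequence printed above belong to its own promoter window. Counts summed to 136 over the 2 sgNC libraries, at 2.22 and 2.12 CPM, and to 0 over the 4 sgP2 libraries. Against a floor of 3 counts per library, its sgP2 level was at least 22.0-fold lower than in sgNC (adjusted p 4.07e-05). It was read in all 4 sgP1 libraries, at 1.58 to 2.50 CPM, and the sgP2 level was at least 20.6-fold lower than the sgP1 level (adjusted p 7.77e-06). In the sgDual libraries it was at 0 to 0.0817 CPM. R3HDML-AS1 lies under the level at which genes were named by rule and was chosen after its values were seen. Its exons overlap R3HDML on the opposite strand, a gene with 0 counts in every AsPC-1 library.

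**Figure D1:**
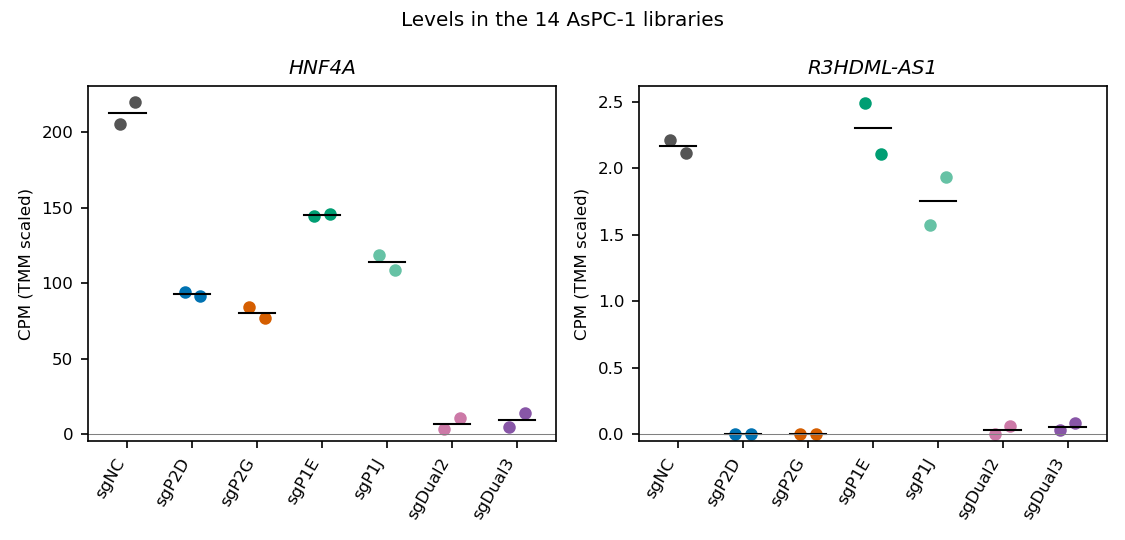
Levels of HNF4A (left) and R3HDML-AS1 (right) in CPM for each of the 14 AsPC-1 libraries. Points are libraries and black lines are the means of the 2 libraries of a guide. HNF4A is lower with every guide than with sgNC and lowest with sgDual, and R3HDML-AS1 is at 0 with both P2 guides but not with the P1 guides.

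Of the 33 other tested genes that lie within 1 Mb of HNF4A, 1 passed the test as lower, R3HDML-AS1, and 3 as higher. Over all genes 1.76% passed as lower and 1.66% as higher. ADA, the adenosine deaminase of purine salvage, was at 6.59 and 8.89 CPM with sgNC, 12.9 and 16.0 with sgP2D and 11.9 and 12.5 with sgP2G (log2 fold change 0.78, SE 0.18, adjusted p 0.0301). PKIG, an inhibitor of protein kinase A, rose from 1.39 and 1.41 CPM to 2.82 and 3.52 CPM with sgP2D and 2.91 and 2.93 with sgP2G (adjusted p 0.018). Exons of ADA and PKIG overlap on opposite strands, and the strand setting of the counting is not given in the sources used here, so their reads cannot be told apart with certainty. The third was PI3, the elastase inhibitor elafin, which had a low sgNC mean of 0.351 CPM and rose by 1.79 on the log2 scale (SE 0.28, adjusted p 0.00404). FITM2, TTPAL and SERINC3, the nearest protein-coding neighbours tested, had log2 fold changes of -0.03, 0.06 and 0.06, with adjusted p of 0.933, 0.825 and 0.779.

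Across all genes, 581 of 16992 (3.42%) passed the test between sgP2 and sgNC, 282 higher (1.66%) and 299 lower (1.76%). An unadjusted p under 0.05 was reached by 3025 genes. The median log2 fold change over all tested genes was 0.00. Most changes were modest, with a median of 0.79 for the genes that rose and -0.57 for the genes that fell, and 185 of the 581 changed at least 2-fold (111 higher, 74 lower). Every one of the 581 had all 4 sgP2 libraries on the same side of both sgNC libraries, and 0 of the 581 had opposite signs with the 2 guides. Both follow largely from the choice of the 581 by a test on these same libraries and are not a separate result. The count depended on single libraries. It was 63 without sgNC replicate 1, 57 without sgNC replicate 2, 315 without sgP2D replicate 1, 351 without sgP2G replicate 1 and 195 without the 4 sgDual libraries, and it was 972 with the replicate number as a block and 1905 when the guides were fitted as separate groups and their mean was tested (11.2%, with 5.78% higher and 5.43% lower). Of 76 genes named here as past the threshold, 61 did not pass without sgNC replicate 1 and 60 without sgNC replicate 2. These 76 leave out CLDN1 and PLAUR, which are also described below as past the threshold but were not refitted singly. Of the calls, 48.5% were higher. When libraries were scaled only by their totals, 59.1% were (365 higher, 253 lower).

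**Figure D2:**
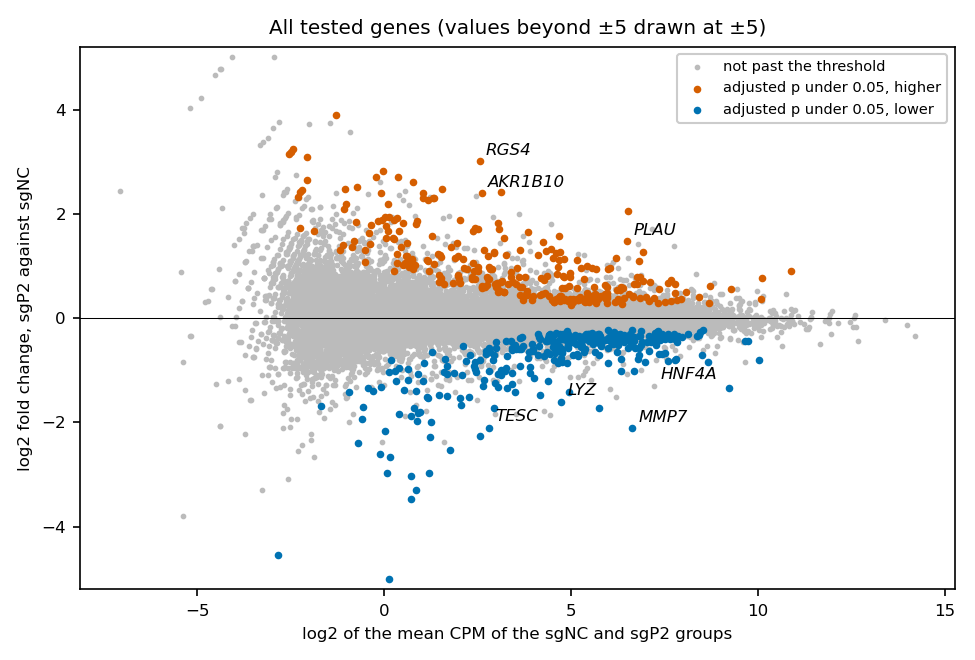
Log2 fold change of sgP2 against sgNC (vertical axis) against the log2 of the mean level in CPM (horizontal axis) for the 16992 tested genes, 1 point per gene, with values beyond ±5 drawn at ±5. Orange and blue points passed the test as higher (282 genes) and lower (299 genes), and HNF4A is drawn in grey because it did not pass.

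MMP7 stood at the lowest p of all genes. It encodes matrilysin, a secreted protease made by glandular epithelium and many carcinomas, and lies on chromosome 11, 102520508 to 102530753, on the minus strand. The sgNC libraries held 165 and 159 CPM. With sgP2D the level was 31.9 and 39.5 CPM and with sgP2G it was 37.4 and 40.6 CPM. All 4 sgP2 libraries were close together, at 23.1% of the sgNC mean, and far under both controls (log2 fold change -2.12, SE 0.11, adjusted p 4.85e-08). The sgP1 mean was 136 CPM, and sgP2 was lower than sgP1 by -1.86 on the log2 scale (SE 0.09, adjusted p 4.69e-08). The fall of MMP7 passed the test under all 16 alternative settings, where its log2 fold change stayed between -2.18 and -2.05.

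TESC, a calcium-binding regulator of sodium-proton exchange, fell from 11.1 and 11.6 CPM to 3.33 and 3.73 CPM with sgP2D and 1.498 and 2.01 CPM with sgP2G (log2 fold change -2.10, SE 0.51, adjusted p 0.0464), and the 2 guides differed (log2 1.02, adjusted p 0.0424). Its fall did not pass with the replicate number as a block (adjusted p 0.0544), nor under 10 of the other 15 alternatives, among them each one that left out an sgP2 or sgNC library, where the adjusted p ran from 0.0568 to 0.234. FMO5, a flavin-containing monooxygenase, was at 8.997 and 14.4 CPM with sgNC, 3.13 and 4.26 with sgP2D and 3.15 and 3.63 with sgP2G (log2 fold change -1.72, SE 0.30). LYZ encodes lysozyme, an antibacterial enzyme that gastric-type and classical pancreatic tumour cells secrete. LYZ fell from 36.2 and 44.2 CPM to 13.7 and 14.3 with sgP2D and 11.9 and 12.9 with sgP2G (log2 fold change -1.60, SE 0.39, adjusted p 0.0488). FGFR4, the receptor for the bile acid hormone FGF19, was at 42.3 and 46.8 CPM in sgNC, 12.3 and 21.9 with sgP2D and 12.9 and 19.6 with sgP2G (log2 fold change -1.41, adjusted p 0.0349). Its replicates with either guide differed widely, and the highest of them was still under both controls. The fall of LYZ did not pass under 10 of the 16 alternatives and that of FGFR4 under 9. Their log2 fold changes ran from -1.75 to -1.46 and from -1.58 to -1.29. TLR4, the lipopolysaccharide receptor, fell from 11.1 and 10.9 CPM to 4.602 and 3.80 CPM with sgP2D and 5.45 and 4.71 CPM with sgP2G (log2 fold change -1.24, adjusted p 0.000121). LRIG3, a transmembrane modulator of growth factor receptors, went from 30.7 and 27.0 CPM to 13.7 and 14.3 with sgP2D and 11.6 and 10.5 with sgP2G (log2 fold change -1.20, adjusted p 0.00129). The mannosidase MAN1A1, the adhesion protein IGSF9B, and LRRC66, C1orf21, C2orf88 and HOXA-AS3 had log2 fold changes from -1.47 to -1.27. Exons of HOXA-AS3 overlap several HOXA genes, and those of FMO5 overlap CHD1L, on the opposite strand.

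ARID5B, a DNA-binding cofactor of chromatin demethylation, fell further but from a lower level, and was named after its values were seen. It was at 5.48 and 6.10 CPM with sgNC, 0.889 and 1.05 with sgP2D and 0.929 and 1.11 with sgP2G. The libraries of both guides overlapped each other and lay far under the controls (log2 fold change -2.53, SE 0.23, adjusted p 6.44e-05). The sgP2 level was also lower than that of sgP1 (log2 fold change -2.26, adjusted p 2.53e-05), and the fall passed under all 16 alternatives. With sgDual, ARID5B was instead above the controls, at a mean of 15.5 CPM (sgDual against sgP2 log2 fold change 3.95, adjusted p 3.89e-09).

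Among genes with a mean of at least 5 CPM, the largest rise was that of RGS4, a protein that switches off G protein signalling. RGS4 was at 1.43 and 1.156 CPM with sgNC, 15.1 and 8.89 with sgP2D and 11.9 and 5.95 with sgP2G, so that the lowest sgP2 library was several times both controls while replicates of a guide were unequal (log2 fold change 3.01, SE 0.61, adjusted p 0.0207). RFLNA, an actin-organising partner of filamin, was at 37.0 and 34.7 CPM with sgNC, 133 and 115 with sgP2D and 185 and 162 with sgP2G (log2 fold change 2.05, SE 0.35, adjusted p 0.0107). The guides differed for RFLNA (log2 -0.48, adjusted p 0.0231), and its exons overlap ZNF664 on the same strand. CNN3, an actin-binding calponin, rose from 3.64 and 3.56 CPM to 15.4 and 12.5 with sgP2D and 11.6 and 11.5 with sgP2G (log2 fold change 1.82, adjusted p 0.0105). RAP1GAP, which switches off the small GTPase RAP1, rose from 6.75 and 7.13 CPM to 23.2 and 28.5 CPM with sgP2D and 17.0 and 18.8 CPM with sgP2G (log2 fold change 1.66, adjusted p 0.00216). OSBPL6, an oxysterol-binding lipid carrier, had the smallest SE of the 15 rises. It was at 12.5 and 12.6 CPM with sgNC, 36.2 and 34.0 with sgP2D and 28.7 and 26.8 with sgP2G, and at a mean of 12.04 CPM with sgP1 (sgP2 against sgNC log2 fold change 1.32, SE 0.13, adjusted p 9.26e-05; sgP2 against sgP1 1.38, adjusted p 3.54e-06). The plakin PPL, a cornified envelope protein, rose by 1.45 to a mean of 27.9 CPM, beside 28.1 CPM with sgP1 (sgP2 against sgP1 -0.01, SE 0.21, adjusted p 0.991). The lysyl oxidase LOXL4, the transporter gene SLC35F3, SRGAP3, CLIP4 and JAZF1 rose by 1.54 to 1.73 on the log2 scale. Exons of LOXL4, SRGAP3 and JAZF1 overlap genes on the opposite strand.

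**Figure D3:**
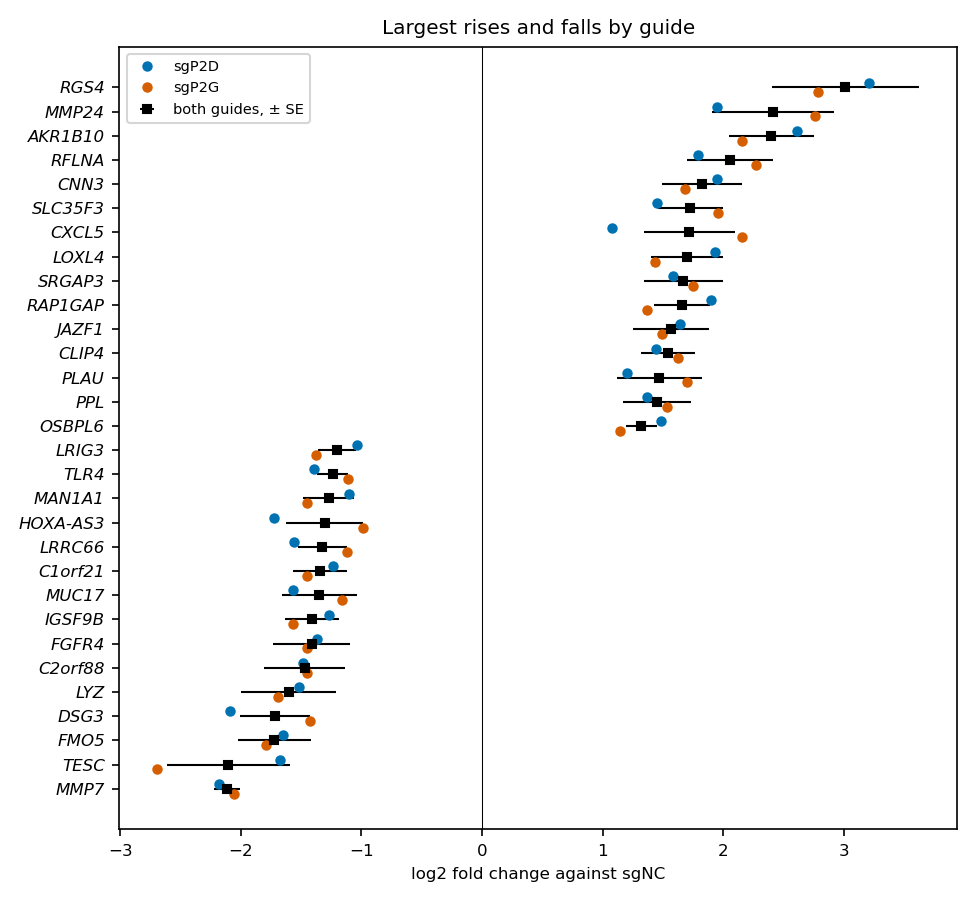
Log2 fold changes against sgNC (horizontal axis) for the 15 largest rises and 15 largest falls among genes with a mean of at least 5 CPM, 1 row per gene. Black squares with bars are both guides together ± SE, and coloured points are the single guides. These lie on the same side of 0 for each gene, which follows from choosing genes without overlap between sgP2 and sgNC.

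The gene groups with several called members were small parts of their lists, and the lists are described by their counts beside the shares over all genes given above. With the replicate number as a block, 8 epithelial junction genes, 8 NRF2 targets, 5 growth factor genes, 4 interferon-stimulated genes, 4 brush border genes and 4 lineage transcription factors passed. The fit without it gave 5, 4, 3, 2, 2 and 1. Over all 16992 genes the block gave 972 calls in place of 581, so the shares given above do not apply to its counts. Members outside the naming rule, among them CLDN1, PLAUR and all members given with values that did not pass, were chosen after their values were seen. Exons of SLC7A11, DSG2, PLAU, MUC5B, FBP1, HTRA1 and ITGB2 overlap other genes that run the opposite way, whose reads their counts may include. The desmosomal cadherins, which join epithelial cells at desmosomes, gave 3 of the 4 falls in the epithelial junction list. DSG2 was at 1336 and 1323 CPM with sgNC, 797 and 727 with sgP2D and 795 and 728 with sgP2G, at 57.3% of control with nearly equal values for the 2 guides (log2 fold change -0.80, SE 0.09, adjusted p 0.000296). DSC2 went from 151 and 173 CPM to 95.2 and 96.1 with sgP2D and 84.2 and 85.2 with sgP2G (log2 fold change -0.84, SE 0.11, adjusted p 0.00138). DSG3 fell most, from 82.3 and 82.6 CPM to 22.2 and 16.6 with sgP2D and 35.1 and 26.2 with sgP2G (log2 fold change -1.72, SE 0.29, adjusted p 0.00901). These genes sit side by side on chromosome 18, between 30990008 and 31549008, together with DSC3, DSG4, DSG1 and DSC1. Outside the list, and chosen after their values were seen, DSG4 fell from 4.63 and 4.05 CPM to 2.17 and 2.22 with sgP2D and 1.83 and 2.04 with sgP2G (log2 fold change -1.07, adjusted p 0.00358), and DSC3 from 17.2 and 20.3 CPM to 13.7 and 14.7 CPM with sgP2D and 11.5 and 10.2 CPM with sgP2G (log2 fold change -0.59, adjusted p 0.0429). Of the 6 cadherins of the cluster that could be tested, 5 fell and DSG1, at 0.192 CPM in sgNC, did not pass. The falls of DSG2 and DSC2 passed under all 16 alternatives. DSC3 did not pass under 8 of the 16, with an adjusted p of 0.0561 with scaling by total counts, 0.108 without the sgDual libraries, 0.219 without sgP2G, 0.13 without sgNC replicate 1, 0.337 without sgNC replicate 2, 0.061 without sgP2D replicate 1, 0.0941 without sgP2G replicate 1 and 0.0771 without sgP2G replicate 2. DSG3 did not pass without sgNC replicate 1 (0.0978) or sgNC replicate 2 (0.101), and DSG4 did not pass without sgNC replicate 1 (0.0719). In all 4 sgP2 libraries these 5 genes were lower than in both controls. For each of them sgP2 was also lower than sgP1, with log2 fold changes from -1.17 to -0.47 and adjusted p from 0.00071 to 0.023. With sgDual, DSC3 was at a mean of 50.5 CPM and DSG4 at 5.07 CPM, beside sgNC means of 18.8 and 4.34 CPM.

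Over the whole list of epithelial junction and keratin genes, 4 of 38 tested members fell, 1 rose and the median log2 fold change was -0.09. Without sgNC replicate 1 there were 3 falls and without sgNC replicate 2 there were 2. The fourth fall was OCLN, the tight junction protein occludin, at 25.3 and 33.9 CPM with sgNC, 17.3 and 21.3 with sgP2D and 18.4 and 19.3 with sgP2G (log2 fold change -0.63, adjusted p 0.00901). CLDN1, a claudin of tight junctions, was at 33.9 and 52.8 CPM with sgNC, 85.8 and 97.8 with sgP2D and 69.1 and 79.8 with sgP2G (log2 fold change 0.94, adjusted p 0.0486). The desmosomal plaque genes DSP, JUP and PKP3 had log2 fold changes of -0.29, 0.04 and -0.08, with adjusted p of 0.0575, 0.978 and 0.821. CDH1, the cadherin of adherens junctions, did not pass (log2 fold change 0.33, SE 0.36, adjusted p 0.702). Keratins KRT8 and KRT18 did not pass with both guides together (log2 fold changes -0.45 and -0.50), but each fell when a single guide was set against sgNC, KRT8 with a log2 fold change of -0.50 with sgP2D (adjusted p 0.0059) and -0.40 with sgP2G (adjusted p 0.0216), and KRT18 with -0.57 (adjusted p 0.00529) and -0.44 (adjusted p 0.0242). In those comparisons 4.06% of all genes passed as lower with sgP2D and 3.85% with sgP2G. The pooled fit counts differences between guides of a target as spread and the fit by guide does not, so their p-values are not alike. CEACAM6, a surface glycoprotein of gut and pancreatic carcinomas, was at 966 and 1102 CPM with sgNC, 427 and 512 with sgP2D and 642 and 734 with sgP2G, and likewise passed with each guide (log2 fold changes -1.14 and -0.59, adjusted p 0.00014 and 0.0131) but not with both pooled (adjusted p 0.227).

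Targets of NRF2, the transcription factor of the oxidative stress response, had mostly positive signs. Of 27 listed genes, all tested, 4 rose and 0 fell, 25 had positive signs, and the median log2 fold change was 0.40 against 0.00 over all genes. SLC7A11, the cystine importer that feeds glutathione synthesis, was at 70.3 and 72.9 CPM with sgNC, 215 and 163 with sgP2D and 181 and 134 with sgP2G (log2 fold change 1.27, SE 0.22, adjusted p 0.00791). GCLC, the catalytic subunit of the rate-limiting enzyme of glutathione synthesis, rose from 78.4 and 81.1 CPM to 165 and 131 with sgP2D and 145 and 109.7 with sgP2G (log2 fold change 0.79, SE 0.14, adjusted p 0.00709). TXNRD1, thioredoxin reductase, rose from 827 and 803 CPM to 1677 and 1315 CPM with sgP2D and 1435 and 1107 CPM with sgP2G (log2 fold change 0.76, SE 0.16, adjusted p 0.0177). The aldo-keto reductase AKR1B10 rose most, from 1.58 and 2.31 CPM to 13.8 and 10.06 with sgP2D and 10.3 and 7.10 with sgP2G (log2 fold change 2.40, SE 0.35, adjusted p 0.00295). For each of the 4 genes the sgP2 level was also above that of sgP1, with log2 fold changes of 0.98, 0.70, 0.60 and 2.16 and adjusted p of 0.0064, 0.00244, 0.0154 and 0.000544. Within each P2 guide, the library of replicate 1 was the higher for all 4 genes. Members that did not pass include NQO1 (log2 fold change 0.34, adjusted p 0.0937), HMOX1 (0.35, adjusted p 0.396) and AKR1C2 (1.71, adjusted p 0.217), whose sgP2 libraries ran from 98.4 to 375 CPM. Set against sgNC singly, sgP2D raised 12 of the 27 and sgP2G 7, where 4.46% and 4.31% of all genes passed as higher. Of the 27, 0 passed in the pooled comparison without sgNC replicate 1 and 1 without sgNC replicate 2.

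Both plasminogen activators, PLAT and PLAU, which start proteolysis outside the cell, rose, and MMP7 of the same list fell. Of 22 tested matrix protease and plasminogen genes, 4 rose and 1 fell, with a median log2 fold change of 0.38. PLAT, the tissue plasminogen activator, was at 1161 and 1465 CPM with sgNC, 2200 and 2626 with sgP2D and 2394 and 2604 with sgP2G (log2 fold change 0.90, SE 0.21, adjusted p 0.0317). PLAU, the urokinase-type activator, rose from 49.2 and 46.8 CPM to 125 and 95.7 with sgP2D and 174 and 138 with sgP2G (log2 fold change 1.47, SE 0.35, adjusted p 0.0444). Its receptor PLAUR rose from 132 and 126 CPM to 165 and 142 with sgP2D and 193 and 171 with sgP2G (log2 fold change 0.38, adjusted p 0.0486). MMP24, a membrane-type metalloprotease, rose from 3.04 and 2.44 CPM to 11.2 and 10.00 with sgP2D and 18.8 and 18.4 with sgP2G (log2 fold change 2.41, adjusted p 0.0252), more with sgP2G (adjusted p 0.00421), and its exons overlap an antisense gene. The collagenase MMP1 was at 1.81 and 1.83 CPM with sgNC, 16.2 and 11.7 with sgP2D and 4.47 and 4.52 with sgP2G, rose with each guide singly (adjusted p 7.71e-06 and 0.00523) and differed between them (log2 1.63, adjusted p 0.000781), but did not pass with both pooled (adjusted p 0.131). With sgP1, MMP24 was at a mean of 13.2 CPM, and sgP2 did not differ from sgP1 by the test (log2 fold change 0.14, adjusted p 0.876). Of the 22 genes, 2 were higher and 2 lower with sgP2 than with sgP1, where 2.17% and 2.13% of all genes were. The 4 rises of this list over sgNC did not pass without the 4 sgDual libraries, where MMP7 alone of the list was called. MMP7 was also the only call of the list without sgNC replicate 1, sgNC replicate 2 or sgP2G replicate 1.

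CXCL1, CXCL5 and CXCL8, chemokines that attract neutrophils, rose from low levels. Of 23 tested NF-kB chemokine and cytokine genes, 3 rose and 0 fell, with a median of 0.37. Against sgP1, 5 of the 23 were higher with sgP2 and 0 lower, where 2.17% of all genes passed as higher. CXCL1 and CXCL8 did not differ from sgP1 by the test (sgP1 means 2.93 and 2.68 CPM, adjusted p 0.996 and 0.186). CXCL8, interleukin 8, was at 1.08 and 0.706 CPM with sgNC, 7.23 and 4.29 with sgP2D and 5.42 and 3.02 with sgP2G (log2 fold change 2.47, SE 0.50, adjusted p 0.0192). CXCL1 went from 0.380 and 0.578 CPM to 2.75 and 1.70 CPM with sgP2D and 3.66 and 3.66 CPM with sgP2G (log2 fold change 2.61, adjusted p 0.0431). CXCL5 went from 2.57 and 2.76 CPM to 6.57 and 4.72 with sgP2D and 11.8 and 11.9 with sgP2G (log2 fold change 1.72, adjusted p 0.0262) and was higher with sgP2G (adjusted p 0.00336). NFKBIA and TNFAIP3, feedback inhibitors of NF-kB, had log2 fold changes of -0.10 and -0.68 and did not pass (adjusted p 0.747 and 0.409). With no filter on low counts, without the 4 sgDual libraries, or without sgNC replicate 1 or sgNC replicate 2, 0 of the 23 passed. Among 51 interferon-stimulated genes, 2 fell and 0 rose, with a median of 0.09: the guanylate-binding protein GBP1 (log2 fold change -1.54, adjusted p 0.0184) and the transcription factor IRF1 (-0.44, adjusted p 0.0488).

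AXIN2 and RNF43, genes that β-catenin switches on and that then damp the Wnt signal, fell. Of 17 tested Wnt feedback and stem cell genes, 4 fell and 0 rose, with a median of -0.06. AXIN2, a scaffold of the β-catenin destruction complex, was at 8.74 and 6.04 CPM with sgNC, 4.33 and 3.05 with sgP2D and 3.66 and 3.34 with sgP2G (log2 fold change -1.04, SE 0.24, adjusted p 0.0281). RNF43, a ubiquitin ligase that removes Wnt receptors, went from 5.58 and 6.04 CPM to 2.63 and 2.90 with sgP2D and 2.34 and 2.99 with sgP2G (log2 fold change -1.10, SE 0.21, adjusted p 0.0105), and its exons overlap SUPT4H1. LGR6, an R-spondin receptor, was the most abundant of the 4, at 187 and 178 CPM with sgNC, 125 and 137 with sgP2D and 120.4 and 129 with sgP2G (log2 fold change -0.51, adjusted p 0.00675). The ligand WNT11 fell from 1.49 and 2.02 CPM to 0.425 and 0.771 CPM with sgP2D and 1.11 and 0.700 CPM with sgP2G (adjusted p 0.0476). LGR5, the intestinal stem cell receptor, had a log2 fold change of -0.42 against sgNC (adjusted p 0.375) and was lower than with sgP1 (-1.22, adjusted p 0.00378). Against sgP1, 6 of the 17 were lower and 0 higher, where 2.13% of all genes passed as lower. Against sgNC, 0 of the 17 passed without sgNC replicate 1 or sgNC replicate 2.

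MUC17, MUC3A and MUC5B, which coat epithelial surfaces, fell. Of 13 tested mucin and trefoil genes, 3 fell and 0 rose, with a median of -0.30. MUC17, a membrane mucin of the gut surface, was at 899.6 and 823 CPM with sgNC, 293 and 289.8 with sgP2D and 406 and 363 with sgP2G (log2 fold change -1.35, SE 0.31, adjusted p 0.0384). With sgP1 it was lower still, at a mean of 159 CPM, and sgP2 was above sgP1 (log2 fold change 1.09, adjusted p 0.0436). MUC5B, a secreted gel-forming mucin, went from 4.18 and 3.44 CPM to 0.309 and 0.463 with sgP2D and 1.05 and 1.94 with sgP2G (log2 fold change -1.99, adjusted p 0.0288). MUC3A, another membrane mucin, fell from 35.4 and 35.7 CPM to 26.03 and 24.5 CPM with sgP2D and 24.7 and 24.2 CPM with sgP2G (log2 fold change -0.52, adjusted p 0.00446). The trefoil peptide TFF3 differed between guides, at 11.2 and 10.3 CPM with sgNC, 10.2 and 10.3 with sgP2D and 3.72 and 3.12 with sgP2G (sgP2D against sgP2G log2 1.59, adjusted p 1.23e-05). Of the 13, 0 passed without sgNC replicate 1 or sgNC replicate 2, and 1 without sgP2D replicate 2 or sgP2G replicate 1.

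Growth factor genes moved both ways. BMP4 was at 131 and 121 CPM with sgNC, 80.5 and 83.0 with sgP2D and 87.9 and 87.8 with sgP2G (log2 fold change -0.57, SE 0.09, adjusted p 0.00501), and BMP7 at 54.7 and 45.4 CPM with sgNC, 29.7 and 31.7 with sgP2D and 34.4 and 36.4 with sgP2G (log2 fold change -0.60, adjusted p 0.00404). Both ligands of the bone morphogenetic protein family fell, and BMP4 was also lower than with sgP1 (-1.09, adjusted p 3.54e-06). TGFB2, a transforming growth factor ligand, rose from 16.9 and 16.8 CPM to 27.7 and 26.6 with sgP2D and 38.9 and 40.3 with sgP2G (log2 fold change 0.99, adjusted p 0.013), more with sgP2G (adjusted p 0.00301). Over the list of TGF-β and BMP genes, 2 of 21 rose and 2 fell. CCN2, connective tissue growth factor, rose (0.65, adjusted p 0.0273) and belongs also to the YAP and TEAD list, where 4 of 23 rose and 2 fell, with a median of 0.16. AMOTL2 and AMOTL1, related angiomotin-like scaffolds, went opposite ways (log2 fold changes 0.66 and -0.98, adjusted p 0.00539 and 0.0144). DUSP4, a phosphatase induced by ERK signalling, rose from 340.3 and 323 CPM to 533 and 465 CPM with sgP2D and 551 and 472 CPM with sgP2G (log2 fold change 0.61, adjusted p 0.00732), and FGFBP1, an FGF carrier, rose by 1.15 (adjusted p 0.013).

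**Figure D4:**
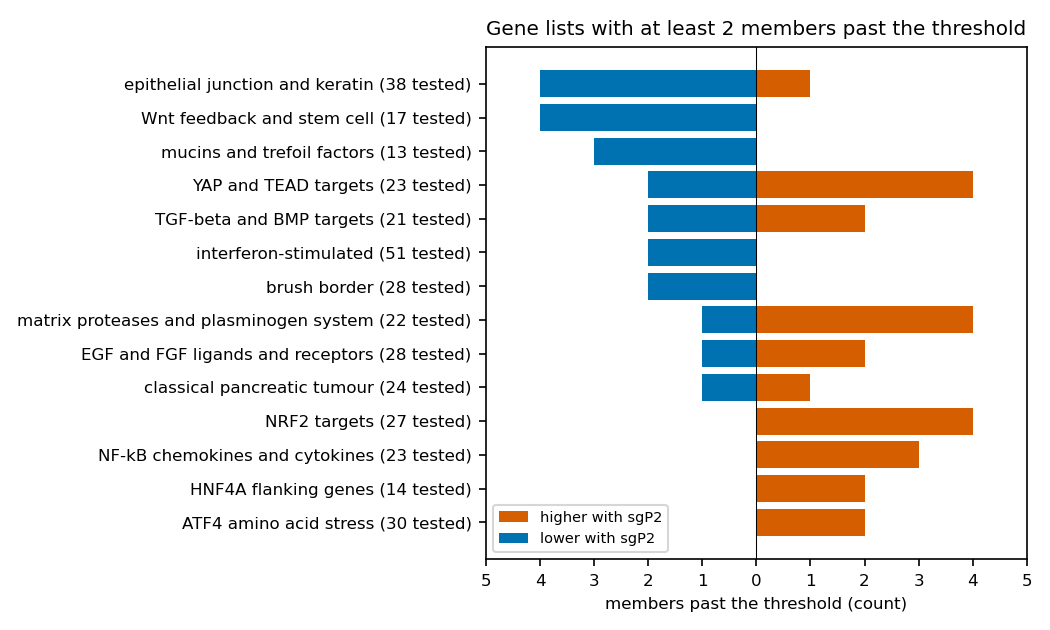
Members past the test in sgP2 against sgNC for the gene lists with at least 2, as counts to the right (higher, orange) and left (lower, blue). The number of tested members stands beside each list, and most members of every list did not pass.

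Of 27 tested transcription factors of pancreatic and gut identity, 1 fell and 0 rose with both guides pooled, a share near the 3.42% of all genes. Set singly against sgNC, 4 fell with sgP2D, and 2 rose and 2 fell with sgP2G. Of all genes, 4.06% fell with sgP2D, and 4.31% rose and 3.85% fell with sgP2G. NR5A2, a nuclear receptor of pancreas, liver and gut, was at 30.3 and 29.1 CPM with sgNC, 17.3 and 20.1 with sgP2D and 13.9 and 16.6 with sgP2G (log2 fold change -0.81, SE 0.12, adjusted p 0.00246). HNF4G, the paralog of HNF4A, did not pass (log2 fold change -0.20, SE 0.21, adjusted p 0.675), nor did GATA6, a marker of classical tumours (-0.01, adjusted p 0.983). In the classical pancreatic tumour list 1 of 24 rose and 1 fell, with a median of -0.26, and in the basal-like list 1 of 18 rose and 0 fell, with a median of 0.21. REG4, a secreted lectin of the classical list, rose over sgNC (0.89, adjusted p 0.00791) but was lower than with sgP1 (-1.08, adjusted p 0.000291), where its mean was 28.8 CPM.

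Of 47 liver plasma protein genes 14 could be tested and 0 passed, and of 37 lipoprotein and fat absorption genes 23 were tested and 0 passed with both guides pooled. Beside the 3.42% of all genes, 0 of lists this short is not a result about them. Against sgNC singly each guide had 1 higher and 1 lower liver gene, while 2 lipoprotein genes fell with sgP2D and 1 rose and 1 fell with sgP2G. Of all genes, 4.46% passed as higher and 4.06% as lower with sgP2D, and 4.31% and 3.85% with sgP2G. Cholesterol synthesis (24 tested), fatty acid synthesis (16), mesenchymal genes (23), ribosomal proteins (66) and ribosome biogenesis (37) had 0 called in the pooled comparison as well. Medians of these 7 lists ran from -0.10 for ribosomal proteins to 0.26 for mesenchymal genes. The iron transporter SLC11A2 fell from 60.5 and 62.0 CPM to 35.7 and 39.1 with sgP2D and 37.2 and 43.1 with sgP2G (log2 fold change -0.66, adjusted p 0.000857), the 1 call among 19 iron and copper genes. In oxidative phosphorylation 1 of 73 nuclear genes passed, NDUFB4 (higher by 0.36), while 67 of the 73 had negative signs, with a median of -0.11. A single called gene came from each of S phase (RFC5, -0.50, of 52), mitosis (CENPF, -0.30, of 53), G1 control (CDKN1C, 0.91, of 16), p53 targets (PHLDA3, -0.58, of 24), the unfolded protein response (ATF6, -0.24, of 23), fatty acid oxidation (ECI2, -0.41, of 33), glycolysis (PFKFB3, 0.60, of 34) and cytochromes P450 (CYP4F11, 2.71, of 31). The core pattern CAAAGNCCA was present in the 250 bases before the start of 2 of the 235 genes that fell and have a RefSeq window (0.851%), 2 of the 206 that rose (0.971%) and 181 of the 11366 tested genes (1.59%).

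Set against the same control libraries singly, sgP2D changed 1447 genes (8.52%; 757 higher, 690 lower) and sgP2G 1387 (8.16%; 733 higher, 654 lower). These 2 comparisons share their controls, so their likeness is not a result. Compared with each other directly, the guides differed in 288 genes (1.69%), 110 higher with sgP2D (0.647%) and 178 higher with sgP2G (1.05%), and 1660 genes reached an unadjusted p under 0.05. Of the 581 genes called with both guides together, 18 differed between the guides. With the replicate number as a block, the counts were 3095 for sgP2D, 2982 for sgP2G and 778 between guides. With no filter on low counts 649 genes differed between guides. The 288 became 135 without sgP2D replicate 1, 169 without sgP2D replicate 2, 154 without sgP2G replicate 1 and 138 without sgP2G replicate 2. The count for sgP2D against sgNC was 617 without sgP2D replicate 1, 644 without sgNC replicate 1 and 829 without sgNC replicate 2. That for sgP2G was 535 without sgP2G replicate 1, 738 without sgP2G replicate 2, 604 without sgNC replicate 1 and 702 without sgNC replicate 2, and scaling by total counts alone gave it 918 higher and 522 lower genes.

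Among genes with a mean of at least 5 CPM, the widest differences between guides included near losses of a gene with 1 guide only. For other genes the fall was partial, as for KLHL36, or the guides lay on opposite sides of the control. With sgP2G, PRSS23, a secreted serine protease gene on chromosome 11 (86791059 to 86952910), stood at 0.809 and 0.637 CPM against 111 and 119 CPM with sgP2D and 106 and 138 CPM with sgNC. QPRT, an enzyme of NAD synthesis on chromosome 16 (29679008 to 29698699), was at 7.85 and 12.5 CPM with sgP2D, from 203 and 406 counts, and at 1 and 0 counts with sgP2G, against 16.1 and 20.2 CPM with sgNC. The ratio of its guides was 677, with a 95% interval for counting error of 121 to 26787. KLHL36, a ubiquitin ligase adaptor on chromosome 16 (84648525 to 84667686), was at 30.5 and 32.6 CPM with sgNC, 29.04 and 33.3 with sgP2D and 4.71 and 6.14 with sgP2G. The adjusted p between guides was 8.42e-09 for PRSS23, 0.000111 for QPRT and 9.22e-08 for KLHL36. Set against sgNC, sgP2D did not pass for any of the 3 (adjusted p 0.825, 0.107 and 0.958), although both of its QPRT values were under the controls. Exons of PRSS23 overlap FZD4 on the opposite strand.

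ARFIP2 and TIMM10B fell together with sgP2G. ARFIP2, an effector of ARF and RAC GTPases, was at 55.8 and 54.8 CPM with sgNC, 54.1 and 53.3 with sgP2D and 1.35 and 0.955 with sgP2G (guides against each other log2 5.53, SE 0.11, adjusted p 3.91e-12). TIMM10B, a chaperone of mitochondrial protein import, was at 25.0 and 23.8 CPM with sgNC, 24.2 and 23.1 with sgP2D and 2.55 and 1.88 with sgP2G (log2 3.41, SE 0.12, adjusted p 2.69e-09). The 2 genes start back to back on chromosome 11, ARFIP2 on the minus and TIMM10B on the plus strand. The 169 bases between their RefSeq starts, chr11:6481332-6481500 on GRCh38.p14, plus strand, are printed because both genes leave them; capitals mark the 19 CG dinucleotides, at a GC content of 62.7%.
ARFIP2 and TIMM10B: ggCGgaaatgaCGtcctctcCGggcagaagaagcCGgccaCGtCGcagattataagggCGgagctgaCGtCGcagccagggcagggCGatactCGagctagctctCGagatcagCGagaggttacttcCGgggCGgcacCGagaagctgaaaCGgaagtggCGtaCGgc
Of 8 other tested genes within 100 kb of ARFIP2, 4 differed between the guides, TIMM10B and 3 more, all lower with sgP2G. Of all tested genes, 0.647% were. DNHD1, an axonemal protein gene that starts 15.8 kb from ARFIP2, was at 3.80 and 5.78 CPM with sgNC, 7.502 and 8.05 with sgP2D and 0.330 and 0.223 with sgP2G (adjusted p 5.61e-07). TRIM3, a ubiquitin ligase gene on the minus strand, starts 0.224 kb from the far end of ARFIP2. It was at 23.3 and 22.2 CPM with sgNC, 19.9 and 20.6 with sgP2D and 7.28 and 6.18 with sgP2G (adjusted p 6.08e-06). APBB1, an adaptor of the amyloid precursor protein 55.3 kb away, was at 12.99 and 14.2 CPM with sgNC, 14.7 and 17.8 with sgP2D and 6.65 and 7.39 with sgP2G (adjusted p 0.000116). TRIM3 and APBB1 were also under the controls with other guides. TRIM3 was at 14.4 and 12.7 CPM with sgP1J and at a mean of 9.53 CPM with sgDual, and APBB1 was at 10.9 and 11.8 CPM with sgP1J. Exons of ARFIP2 and TIMM10B overlap on opposite strands, so their values are uncertain where reads of both were not separated. Exons of DNHD1 overlap AC084337.2 on the same strand, so its counts are uncertain too. The plus-strand gene ENSG00000283977 (6481485 to 6508978) reaches from TIMM10B into DNHD1. It was low in all libraries and lower with sgP2G than with sgNC (log2 fold change -3.60, adjusted p 0.0173). DNHD1, TRIM3 and APBB1 were named after their values were seen.

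With sgP2D the gene lost was FBP1, fructose-1,6-bisphosphatase, an enzyme of gluconeogenesis on chromosome 9 (94603133 to 94640249). FBP1 was at 94.6 and 125 CPM with sgNC, 0.464 and 0.957 with sgP2D and 68.3 and 82.8 with sgP2G. Both sgP2D libraries were under 1 CPM, both sgP2G libraries were under the controls without passing (adjusted p 0.321), and the guides differed by -6.68 on the log2 scale (SE 0.45, adjusted p 5.32e-05). Of 2 other tested genes within 100 kb of FBP1, AOPEP was lower with sgP2D than with sgP2G (log2 -0.46, adjusted p 0.00301). Near TNS4, described below, 2 of 3 were, IGFBP4 (-0.90, adjusted p 0.0132) and ENSG00000279806 (-2.74, 0.0154). Of all tested genes, 1.05% were. Near QPRT, KLHL36, PRSS23, HTRA1 and ITGB2, 0 neighbours differed between the guides. HTRA1, a secreted serine protease on chromosome 10 (122458551 to 122514908), was at 61.8 and 62.4 CPM with sgNC, 7.62 and 8.42 with sgP2D and 61.6 and 58.9 with sgP2G (log2 -2.90, adjusted p 4.46e-10). The receptor kinase KIT was at 5.64 and 6.07 CPM with sgNC, 0.928 and 1.358 with sgP2D and 10.3 and 11.6 with sgP2G, so that the guides lay on opposite sides of the control (adjusted p between them 4.48e-07). ITGB2, an integrin of leukocytes, showed the same arrangement, at 6.43 and 7.77 CPM with sgNC, 2.47 and 3.46 with sgP2D and 12.98 and 14.99 with sgP2G (adjusted p 5.32e-05). TNS4, a focal adhesion tensin, was at 107 and 81.2 CPM with sgNC, 33.7 and 24.3 with sgP2D and 162 and 112 with sgP2G (adjusted p 0.00754), and did not pass under every alternative. Its adjusted p was 0.055 without sgP2D replicate 1, 0.101 without sgP2D replicate 2 and 0.0599 without sgP2G replicate 1.

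**Figure D5:**
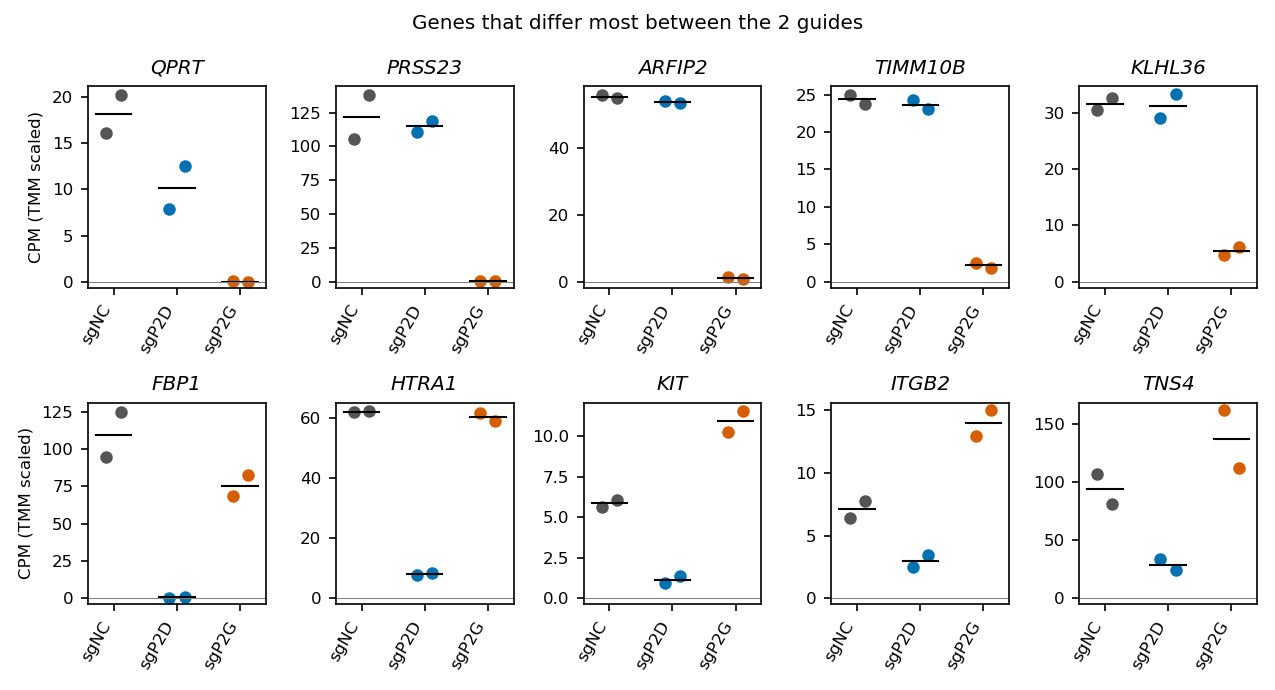
Levels in CPM of the 10 genes that differ most between the P2 guides among genes with a mean of at least 5 CPM, with 5 lower with sgP2G (top row) and 5 lower with sgP2D (bottom row). Points are libraries and lines are means of 2. PRSS23, QPRT and ARFIP2 are near 0 with sgP2G alone and FBP1 is near 0 with sgP2D alone.

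Genes of MHC class II antigen presentation also parted by guide, a group picked after its values were seen. CIITA, the master transcription factor of these genes, was at 0.539 and 0.578 CPM with sgNC, 0.155 and 0.339 with sgP2D and 2.28 and 3.15 with sgP2G. CD74, the invariant chain, was at 1.17 and 1.32 CPM with sgNC, 0.541 and 0.525 with sgP2D and 9.35 and 8.24 with sgP2G. HLA-DRA, an antigen-presenting chain, was at 0.729 and 0.257 CPM with sgNC, 0.116 and 0.123 with sgP2D and 4.44 and 4.68 with sgP2G. In each of the 3 genes both sgP2G libraries were above the controls and both sgP2D libraries below them. Against sgNC, sgP2D passed for CD74 (adjusted p 0.00481). It did not pass for CIITA (adjusted p 0.12, from 4 and 11 counts) or HLA-DRA (adjusted p 0.0709, from 3 and 4 counts). Guide sgP2G passed as higher for CIITA (adjusted p 0.000191), CD74 (1.73e-07) and HLA-DRA (7.04e-05). Against sgNC, 3 of the 12 tested genes of the group were lower with sgP2D and 6 were higher with sgP2G. Of all genes, 4.06% and 4.31% were. Of 12 tested genes of the group, 6 differed between guides, all higher with sgP2G, against 1.05% of all tested genes, with adjusted p of 5.32e-05 for CIITA, 2.08e-08 for CD74, 2.01e-05 for HLA-DRA, 2.36e-05 for HLA-DRB1, 0.00134 for HLA-DPA1 and 0.000781 for HLA-DQB1. In this group 0 of the 12 passed with both guides pooled against sgNC. The sgP1 means were 2.02 CPM for CIITA, 8.28 CPM for CD74 and 3.49 CPM for HLA-DRA, and the sgDual means were 1.65, 8.95 and 2.95 CPM. The sequences of HLA-DRB1, HLA-DPA1 and HLA-DQB1 vary between people and resemble other HLA genes, so their counts are uncertain. Defining leukocyte markers, among them PTPRC, CD3D, CD3E, MS4A1, CSF1R and ITGAM, were too low to be tested. The summed level of the leukocyte list, most of it LYZ, ran from 42.4 to 50.7 CPM in sgNC and from 17.7 to 22.5 CPM in sgP2, and its part in the MHC class II values was not tested.

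The P1 guides are other guides, to the other promoter of the same gene, so changes that both targets share do not show between them. HNF4A itself did not differ between sgP2 and sgP1 by the test (adjusted p 0.343). Between sgP2 and sgP1, 731 genes differed (4.3%), 369 higher with sgP2 and 362 lower. The count was 1204 with the replicate number as a block, 324 without sgP2D replicate 1, 374 without sgP2G replicate 1, 450 without sgP1J replicate 2 and 1208 without sgP1E replicate 1. Between sgDual and sgP2, 7876 genes (46.4%) differed. Genes named above that were lower in sgP2 than in both sgNC and sgP1 include MMP7, ARID5B, the 5 desmosomal cadherins, AXIN2, RNF43, BMP4 and BMP7. Genes higher than in both include OSBPL6, AKR1B10, SLC7A11, GCLC and TXNRD1. Both comparisons use the same sgP2 libraries, here and for the genes above, so passing in both is not independent support.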

How the data were processed

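The deposited AsPC-1 table holds whole-number counts of reads per gene that the authors made from RNA sequencing reads. Libraries were poly(A)-selected and strand-specific and were read from both ends, per the labels' protocols. Per the submitters' processing notes, the tools were cutadapt 1.16, STAR 2.7.9a, featureCounts 1.6.3 and DESeq2 1.36.0 with genome build GRCh38. The annotation release and the strand setting of the counting are not given in the sources used here. Of the gene identifiers, 99.9% matched a table of names and 67.5% had a symbol.

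Counts were fitted with edgeR 4.0.16 in R 4.3.3 (TMM scaling, filterByExpr, glmQLFit and glmQLFTest) over the 14 AsPC-1 libraries, so that all share 1 estimate of spread. 4 target groups (sgNC, sgP1, sgP2, sgDual) gave the pooled comparisons and 7 guide groups gave the comparisons by guide. Differences between guides of a target are part of the spread in the first fit and not in the second. p-values were adjusted by Benjamini-Hochberg over 16992 of 62754 genes, with a threshold of 0.05. The SE is the absolute log2 fold change divided by the square root of F. CPM values are TMM-scaled. Alternatives were DESeq2 1.42.0, other scalings, no filter, other sets of libraries and a replicate block.

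Named genes were HNF4A, the 15 largest rises and 15 largest falls past the threshold with a symbol, a mean of at least 5 CPM and no overlap between sgP2 and sgNC, up to 4 called members of each of 38 gene lists with the smallest p, and the 5 largest differences between guides in each direction by the same kind of rule. The members and lists were chosen with earlier results of these data known, and 1 list, MHC class II, was added after seeing its values. Gene positions are from GENCODE v29 (GRCh38, counted from 1) and sequences from RefSeq (GRCh38.p14). The interval of the QPRT ratio is exact at 95% and, like the floor of 3 counts, covers counting error only. Replicates of sgP2D, sgP2G and sgNC differed beyond counting noise, with a chi-square per degree of freedom of 9.592 to 11.84. Figures were drawn with Python 3.11.15 and matplotlib 3.10.9. Some results are not reported here.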

Additional observations from a re-analysis of the deposited data

Results flagged for a closer look

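In 24 of the genes chosen by rule or added after their values were seen, the effect of sgP2D and that of sgP2G differed when the guides were tested against each other (edgeR, adjusted p under 0.05). Values are log2 fold changes of sgP2D against sgP2G, each from 2 libraries a guide.

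Lower with sgP2G were QPRT (9.07), PRSS23 (7.30), ARFIP2 (5.53), DNHD1 (4.79), TIMM10B (3.41), KLHL36 (2.53), TRIM3 (1.59), APBB1 (1.22) and TESC (1.02). The fitted value of QPRT rests on 1 count in sgP2G and depends on the prior count. Lower with sgP2D were FBP1 (-6.68), KIT (-3.23), HTRA1 (-2.90), TNS4 (-2.24), ITGB2 (-2.22), CXCL5 (-1.08), MMP24 (-0.81), TGFB2 (-0.55) and RFLNA (-0.48). Described with their lists, TFF3 (1.59) and MMP1 (1.63) differed too, both higher with sgP2D. Among MHC class II genes, also lower with sgP2D, the values were -5.203 for HLA-DRA, -4.59 for HLA-DQB1, -4.12 for HLA-DRB1, -4.04 for CD74, -3.71 for HLA-DPA1 and -3.38 for CIITA. TESC, MMP24, CXCL5, RFLNA and TGFB2 passed with both guides pooled and differed between them in size.

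In 1 of 96 groups of 4 sgP2 libraries a single library stood apart from the other 3. For PKIG, sgP2D replicate 2 was at 3.52 CPM, and the other libraries were at 2.82 to 2.93 CPM. Chance alone flags about 1 in 20 such groups.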

How the results depend on the processing

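Directions did not reverse for any named gene under the alternatives run. Of 76 named genes past the threshold between sgP2 and sgNC, 10 stayed past it under all 16 alternatives: MMP7, ARID5B, R3HDML-AS1, DSG2, DSC2, OSBPL6, NR5A2, SLC11A2, TLR4 and LRIG3. Without sgNC replicate 1, 61 of the 76 were lost, and without sgNC replicate 2, 60. Across all named genes that were refitted, 35 were lost without the 4 sgDual libraries and 17 with no filter on low counts. Between guides, the 10 genes chosen by rule and 9 added later were refitted, and 18 of these 19 stayed past it under all 11 alternatives. TESC, RFLNA, MMP24, CXCL5, TGFB2, TFF3 and MMP1 were not refitted between guides. CLDN1 and PLAUR were not refitted singly between sgP2 and sgNC. A group left with 1 library is assumed to vary like the others.

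The log2 fold change of HNF4A became significant with guides as 7 groups (-1.30, adjusted p 0.0382), with DESeq2 (-1.30, 0.0375), with only the sgP2 and sgNC libraries (-1.30, 0.000223) and without the 4 sgDual libraries (-1.30, 0.000952). Leaving out 1 library gave -1.36 to -1.25. Over its alternatives the adjusted p ran from 0.000223 to 0.332.

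The count for sgP2 against sgNC (581) was 1905 with guides as 7 groups, 1132 with DESeq2, 1103 with only the sgP2 and sgNC libraries, 322 without sgP2D, 293 without sgP2G, 195 without the 4 sgDual libraries and 185 at 2-fold or more. Leaving out 1 library gave 57 to 466. The count for sgP2D against sgNC was 617 to 991 with 1 library left out. That for sgP2G was 535 to 738, and 912 without the sgDual libraries. Between guides it was 649 with no filter on low counts and 135 to 169 with 1 library left out. Against sgP1 it was 1272 with DESeq2 and 324 to 1208 with 1 library left out. The setting without the sgDual libraries was chosen after seeing the data. The causes were not tested.

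With the replicate number as a block, the counts were 972 for sgP2 against sgNC, 3095 for sgP2D, 2982 for sgP2G, 778 between guides and 1204 against sgP1. Differences between replicates 1 and 2 correlated across genes at 0.217 to 0.279 between sgP2D, sgP2G and sgNC, and at 0.0772 to 0.339 over the 21 pairs of guides. The labels tie the number to no culture or day. Among the named genes that were refitted, the block ended the call of TESC alone.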
